A study of Mus musculus with 15 samples.

Results

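The subunits of the mitochondrial respiratory chain and ATP synthase were followed in sorted mouse macrophages. Genes were taken by symbol: the 13 protein-coding genes of mitochondrial DNA, and the nuclear protein-coding genes whose symbols mark subunits of complex I (Ndufa, Ndufb, Ndufc, Ndufs or Ndufv with a digit), complex II (Sdha to Sdhd), complex III (Uqcr), complex IV (Cox4 to Cox8) and complex V (Atp5). Assembly factors named Ndufaf and symbols holding -ps were dropped. The annotation holds 98 gene models that meet this rule, and 97 of them were among the 39017 genes of the deposited tables, 84 nuclear and 13 mitochondrial. The rule used names only and no measured value.

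The respiratory chain passes electrons from NADH and succinate to oxygen through complexes I to IV of the inner mitochondrial membrane. Complexes I, III and IV pump protons, and complex V, ATP synthase, uses the return of these protons to make ATP. Mitochondrial DNA encodes core proteins of complexes I, III, IV and V and none of complex II, while the remaining subunits are nuclear genes whose products are imported. The mitochondrial genes are transcribed as long polycistronic RNAs that are cut into separate messages, so the levels of the 2 sets of genes are set by separate transcription systems.

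The labels describe F4/80+ macrophages from mice that carry Csf1r MeriCreMer, in which the Csf1r promoter drives an inducible Cre, together with a conditional BRAF V600E allele and a Rosa26 YFP reporter that Cre switches on. BRAF V600E is a kinase mutant that keeps the MAPK pathway active. The groups are BRAF wild type (WT) and BRAF V600E (VE). At 1 month of age there were 2 WT and 3 VE brain samples and 3 WT and 3 VE liver samples, and at 6 months 2 WT and 2 VE brain samples. The source labels name YFP+ for VE samples only, although the sort description names YFP for all, so the gate may differ with genotype and the 2 cannot be told apart. Brain stem is the region named in the design text. Titles at 6 months also carry "sc" and "veh", which are not explained. Whether each sample is a separate animal is not stated, and p-values therefore speak only for the spread among these libraries, some of which may be technical.

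All 12 microglia markers reached 1 TPM in every brain library, and the 12 Kupffer cell markers did so in every liver library. Their sums separated the organs at 1 month: microglia markers summed to 38445 to 44893 TPM in brain and 340 to 553 TPM in liver, and Kupffer markers to 12826 to 17172 TPM in liver and 52.2 to 193 TPM in brain, where Marco was listed at 0 in every library. Liver libraries also held more RNA of some other cell types. Hepatocyte markers summed to 1299 to 2155 TPM against 233 to 466 TPM in brain, and monocyte and neutrophil markers to 303 to 888 TPM against 4.52 to 155 TPM. Endothelial markers summed to 88.1 to 131 TPM against 4.83 to 23.6 TPM, and erythroid markers to 44.2 to 131 TPM in 5 liver libraries against 0 to 2.32 TPM. Liver VE 3 stood apart with 7581 TPM of erythroid markers. Other lists were higher in brain. At 1 month oligodendrocyte markers summed to 264 to 440 TPM in brain WT and 19.2 to 56.7 TPM in brain VE, against 11.4 to 17.4 TPM in liver. Astrocyte markers summed to 255 to 288 TPM in brain WT and 89.0 to 199 TPM in brain VE, against 48.9 to 130 TPM in liver. Of the 6 tested astrocyte genes, 2 were called higher and 2 lower in brain WT, and 1 higher and 2 lower in brain VE. The part of these cell types in the organ and genotype differences was not tested. At 6 months microglia markers summed to 28408 to 30192 TPM in WT and 5425 to 9770 TPM in VE. Braf was listed at 14.5 and 33.8 TPM in brain WT against 39.2, 3.88 and 22.9 TPM in brain VE at 1 month, and at 6.27 and 5.27 TPM in WT against 1.14 and 0.560 TPM in VE at 6 months (log2 fold change -1.89, limma adjusted p = 0.0588). The gene-level tables do not separate the V600E allele from the normal one, so Braf does not check the genotype labels.

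TPM, a length-scaled transcript abundance, divides reads by transcript length and scales each library to the same total, so it allows levels to be set beside each other within a library but keeps no depth. How many reads lie behind a value is unknown, and a 0 says only that the gene is listed at 0. The 2 ages were deposited as separate tables, and no level was compared between them. Repeat columns, present for 13 of the 15 samples, were averaged into 1 replicate.

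Mitochondrially encoded messages took a larger part of the transcriptome than all nuclear subunits together in each of the 15 libraries. In brain at 1 month they made up 9.18 and 4.87% of all TPM in the WT libraries and 8.14, 9.04 and 6.46% in the VE libraries. In liver they made up 15.4, 12.99 and 11.98% in WT and 12.9, 13.9 and 17.5% in VE. Every liver library lay above every brain library of that age. The nuclear subunits together made up 2.33 and 2.14% in brain WT, 2.22, 2.52 and 2.04% in brain VE, 3.22, 3.45 and 3.03% in liver WT and 3.91, 3.45 and 3.40% in liver VE. Here too the organs did not overlap, whereas the genotypes did, if only barely in liver. The spread between brain WT libraries was wide for the mitochondrial sum and narrow for the nuclear sum, at 7.02 ± 3.04% and 2.24 ± 0.14% (SD, n = 2). Part of that spread lay between columns of a single sample, since the repeat columns of brain WT 4 held 5.18 and 13.2% mitochondrial TPM.

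At 6 months the 2 sums went different ways. The nuclear sum was 2.53 and 2.38% in the WT libraries and 3.66 and 3.79% in the VE libraries, with no overlap. The mitochondrial sum was 8.04 and 8.34% in WT and 6.70 and 10.5% in VE, so the VE libraries lay on both sides of the WT libraries. The log2 ratio of the mitochondrial to the nuclear sum, which does not depend on library scaling, was 1.67 and 1.81 in WT and 0.87 and 1.47 in VE. Both VE values were below both WT values, and they differed from each other by as much as the group means did. At 1 month this balance was 1.58 ± 0.56 in brain WT (SD, n = 2), 1.79 ± 0.11 in brain VE, 2.05 ± 0.18 in liver WT and 2.03 ± 0.32 in liver VE (SD, n = 3 each). Of these groups only brain VE and liver WT did not overlap, and no test was run on the sums.

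**Figure D1:**
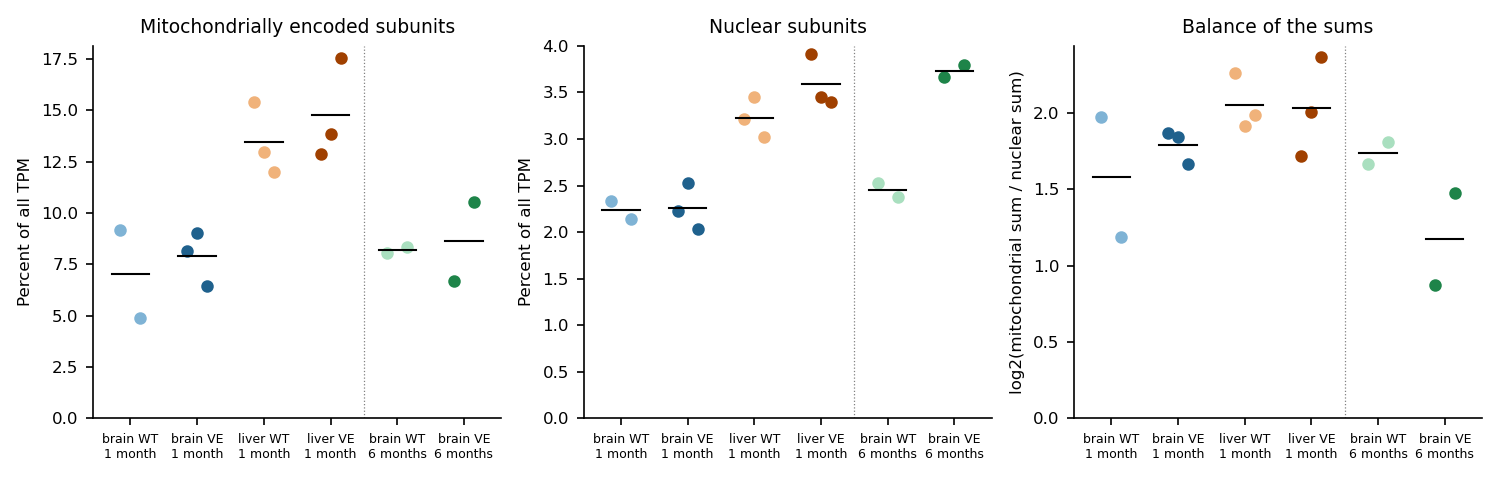
Sums of the 13 mitochondrially encoded and 84 nuclear subunits as percent of all TPM (left and middle, linear axes from 0) and the log2 ratio of the 2 sums (right), for the 15 libraries in 6 groups. Each point is a library and each line a group mean. Dotted lines part the 2 ages, whose tables were made separately. The nuclear sum is 3.66 and 3.79% in VE at 6 months against 2.53 and 2.38% in WT.

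Within the nuclear set the median subunit had a group mean of 206 TPM in brain WT, 183 TPM in brain VE, 272 TPM in liver WT and 306 TPM in liver VE at 1 month. The median mitochondrial gene had 2664, 2503, 4459 and 5523 TPM in the same groups. The most abundant nuclear subunits were small ones. Uqcrb, a complex III subunit, led in brain WT with 953 and 1199 TPM. Ndufa4, first assigned to complex I and found with complex IV, led in brain VE with 745, 1305 and 994 TPM. By their symbols, Ndufa4 and its paralog Ndufa4l2 are counted here among the accessory subunits of complex I. Cox6b1, a complex IV subunit facing the intermembrane space, led in liver, with 1621, 1686 and 1345 TPM in WT and 1872, 1602 and 1582 TPM in VE. Ndufs1 and Ndufv1, which carry redox centres of the peripheral arm of complex I, lay far below the median nuclear subunit. They had 27.1 and 29.9 TPM and 30.5 and 19.7 TPM in brain WT. In liver WT the 2 genes had 20.2, 25.9 and 15.4 TPM and 35.9, 30.3 and 44.0 TPM.

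Several paralogs of these subunits were low or listed at 0. Atp5g2, 1 of 3 genes for the membrane ring of ATP synthase, was listed at 0 in all 15 libraries. Ndufa4l2, Cox7b2, Cox8b and Cox8c did not pass the filter for testing, which asked for 1 TPM or more in 2 or more libraries of an age, and Cox4i2, the lung form of Cox4, failed it at 6 months. That left 79 nuclear and 13 mitochondrial genes tested at 1 month and 78 and 13 at 6 months. Of the ring genes in use, Atp5g3 gave 27.4 ± 6.7% of the summed Atp5g3 and Atp5g1 TPM in brain WT (SD, n = 2) and 56.9 ± 2.3% in liver WT (SD, n = 3). In VE the share was 37.0 ± 11.5% in brain and 57.3 ± 5.5% in liver (SD, n = 3 each).

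Among the mitochondrial genes, 2 pairs overlap on the same strand, and short reads from the overlap belong to both. The shared stretches are shown because the levels of mt-Atp8 and mt-Nd4l rest on how such reads were assigned, which the sources used here do not give. The lines below give 60 bases of the reference at each junction, in GRCm38 and on the plus strand, at chrM:7910-7969 for the end of mt-Atp8, chrM:7927-7986 for the start of mt-Atp6, chrM:10114-10173 for the end of mt-Nd4l and chrM:10167-10226 for the start of mt-Nd4. Capitals mark the 43 bases that mt-Atp8 and mt-Atp6 share and the 7 bases that mt-Nd4l and mt-Nd4 share.
mt-Atp8 end: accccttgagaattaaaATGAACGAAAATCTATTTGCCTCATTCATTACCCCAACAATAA
mt-Atp6 start: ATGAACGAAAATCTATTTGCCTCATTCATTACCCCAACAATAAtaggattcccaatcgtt
mt-Nd4l end: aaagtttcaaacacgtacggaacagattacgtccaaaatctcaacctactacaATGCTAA
mt-Nd4 start: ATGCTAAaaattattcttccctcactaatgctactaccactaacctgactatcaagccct
On opposite strands mt-Nd5 and mt-Nd6 share 14 bases. The library kit does not mark strand, so reads of mt-Nd6 and of RNA from the other strand at its locus cannot be told apart. Nuclear copies of mitochondrial DNA and processed copies of nuclear subunit genes can also take reads, and the sources do not state how reads that fit several places were handled.

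The mitochondrial genes differed widely in level. mt-Co3, a complex IV core subunit, was the most abundant in every group and mt-Nd4l, a small complex I subunit, the least. In brain at 1 month mt-Co3 had 20564 and 12311 TPM in WT, and mt-Nd4l had 394 and 122 TPM. Shares of the mitochondrial sum differed by organ for mt-Co1, the catalytic subunit of complex IV. It made up 7.18 and 6.52% in brain WT and 6.49, 6.72 and 6.89% in brain VE, against 13.03, 13.15 and 13.21% in liver WT and 12.56, 12.99 and 13.19% in liver VE. The organs were fully apart and the genotypes of each organ close together. The ratio of mt-Atp6 to its overlapping neighbour mt-Atp8 was 5.53 and 5.77 in brain WT, 6.30, 6.49 and 6.08 in brain VE, 8.02, 8.08 and 7.80 in liver WT and 11.6, 10.7 and 11.7 in liver VE. The liver VE libraries lay above the liver WT libraries in this ratio. It rests on how reads of the overlap were assigned and may not be a ratio of 2 separate messages. No test was run on the shares and ratios. With 3 libraries against 3, a 2-sided exact permutation test cannot go below p = 0.1.

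Brain macrophages had mostly lower levels of respiratory chain messages than liver macrophages of the same genotype at 1 month. In WT, 10 of 79 nuclear subunits were lower in brain and 2 higher, and 5 of 13 mitochondrial genes were lower and none higher (limma on log2(TPM + 1), adjusted p under 0.05). Across all 15123 genes tested, 13.6% were called, 7.56% higher and 6.02% lower in brain. In VE, 27 nuclear subunits were lower and 2 higher, and 6 mitochondrial genes were lower and none higher, where 16.9% of all genes were called, 9.13% higher and 7.8% lower. The direction was broader than the calls: 63 of 79 nuclear and 12 of 13 mitochondrial genes had a negative log2 fold change in WT, and 69 and 12 in VE. Median log2 fold changes were -0.52 for nuclear and -1.03 for mitochondrial genes in WT, beside 0.21 for all genes tested, and -0.54 and -0.71 in VE, beside 0.13. Other abundant genes of like size were also lower in brain: for up to 300 coding nucleotides their medians were -0.26 in WT and -0.23 in VE, beside -0.70 and -0.73 for the nuclear subunits, and for 300 to 500 nucleotides -0.41 and -0.44, beside -0.52 and -0.60. Over 1146 other protein-coding genes with a mean of at least 100 TPM, Spearman's rho of log2 fold change and coding length was 0.22 in WT and 0.23 in VE, and over the 79 nuclear subunits 0.14 and 0.18, as descriptions across genes. In sorted bulk samples, fewer cells of a type and less RNA per cell cannot be told apart. The values hold relative to all other RNA of a library: with median-ratio scaling the median of all genes moved by -0.31 in WT and -0.17 in VE, and the nuclear median still lay 0.88 and 0.73 below it and the mitochondrial median 1.39 and 0.92 below it. Under that scaling the all-gene calls were 780 higher and 1244 lower in WT, in place of 1143 and 910, and 1110 and 1414 in VE, in place of 1381 and 1180. The VE and WT organ comparisons use separate libraries within 1 fit, and both share their libraries with the genotype comparisons.

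The largest organ differences of single genes were in complex IV. Its nuclear medians, -0.73 in WT and -0.69 in VE, were close to those of complex III (-0.75 and -0.81) and the catalytic head of complex V (-0.99 and -0.61). Of its 15 tested nuclear subunits, 4 were lower and 1 higher in WT and 7 lower and 1 higher in VE, and its 3 mitochondrial genes were lower in both. Cox5a (ENSMUSG00000000088, chr9:57521274-57532426, plus strand, GRCm38) encodes a subunit bound to the matrix side of the complex. It had 135.6 and 91.9 TPM in brain WT and 1140, 1423 and 1364 TPM in liver WT. In VE it had 105.7, 179.0 and 149.4 TPM in brain and 1581, 1402 and 1410 TPM in liver. Every liver library lay several-fold above every brain library, and the log2 fold changes were -3.53 (SE 0.27, limma adjusted p = 1.07e-05) in WT and -3.36 (SE 0.23, limma adjusted p = 3.04e-06) in VE. Cox4i1, the common form of a subunit that joins the complex together with Cox5a, had 525.5 and 338.8 TPM in brain WT against 839, 1010 and 980 TPM in liver WT (log2 fold change -1.15, SE 0.24, limma adjusted p = 0.00918). In VE its log2 fold change was -1.75 (SE 0.20, limma adjusted p = 0.000175). The ratio of Cox4i1 to Cox5a TPM was 3.88 and 3.68 in brain WT and 3.73, 1.60 and 2.41 in brain VE, but 0.711 to 0.811 in the 6 liver libraries. Since the ratio is taken within a library, it shows unequal change of the 2 genes and does not rest on scaling.

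The promoter of Cox5a is printed because this gene had the largest organ difference of the members that are abundant in both organs. The 250 bases before its RefSeq start lie at chr9:57520982-57521231 (GRCm38.p6, plus strand), and capitals mark the match to the SP-type string GGGCGG, here on the other strand.
Cox5a promoter: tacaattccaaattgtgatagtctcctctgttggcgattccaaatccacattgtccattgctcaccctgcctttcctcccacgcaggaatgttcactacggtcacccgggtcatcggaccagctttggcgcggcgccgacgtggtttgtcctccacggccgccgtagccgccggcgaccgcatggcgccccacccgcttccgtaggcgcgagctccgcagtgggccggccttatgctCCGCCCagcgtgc
This string is common: it was found on either strand within the 250 bases before the start of 23 of the 66 nuclear subunits with a promoter entry (34.8%) and of 35.4% of all 27025 genes with an entry. The longer NRF1-type string, GCGCA and GCGC with any 1 base between them, after a factor known for its targets among respiratory genes, was found in 13 of the 66 (19.7%) and in 4.23% of all genes. The ETS-type string CCGGAAGT was found in 3 (4.55% against 3.23%) and the YY1-type string AAGATGGC in 1 (1.52% against 1.83%). None of the 4 strings contains another. A match is a description of the letters in this window.

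mt-Co1 (ENSMUSG00000064351, chrM:5328-6872) stood out among the mitochondrial genes. It had 6588 and 3177 TPM in brain WT and 20084, 17079 and 15829 TPM in liver WT, and its log2 fold change was -1.94 (SE 0.29, limma adjusted p = 0.00131). In VE it had 5282, 6077 and 4456 TPM in brain and 16181, 17997 and 23109 TPM in liver, a log2 fold change of -1.85 (SE 0.25, limma adjusted p = 0.000452). The lowest liver library was more than double the highest brain library. The genes mt-Co2 and mt-Co3, for the other mitochondrial core subunits of complex IV, were lower by -1.14 and -1.04 in WT and -1.18 and -0.82 in VE on the log2 scale. For complex I, mt-Nd6 was lower in both (-1.43 and -1.27), and mt-Nd2 (-1.55) and mt-Nd4 (-1.14) in VE. mt-Cytb, the mitochondrial subunit of complex III, was lower in WT (-1.03, limma adjusted p = 0.0452). mt-Nd1, mt-Nd3, mt-Nd4l, mt-Nd5, mt-Atp6 and mt-Atp8 passed the threshold in neither comparison.

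A few complex IV isoforms ran between near absence and a low level. Cox6a2, the heart and muscle form of Cox6a, was listed at 0 in 5 of the 6 liver libraries and at 0.0660 TPM in the other. In brain it had 51.5 and 10.3 TPM in WT and 60.4, 17.4 and 13.9 TPM in VE. Its log2 fold changes were 4.60 (SE 0.74, limma adjusted p = 0.00194) in WT and 4.65 (SE 0.62, limma adjusted p = 0.000469) in VE, on a scale that understates the change of low genes. The level differed between repeat columns of 1 sample: brain VE 4 had 34.5 and 0.383 TPM, brain VE 5 had 27.6 and 0.167 TPM and brain WT 5 had 20.0 and 0.475 TPM. With only the last column of each sample the calls were lost, at limma adjusted p = 0.206 in WT and 0.338 in VE, and without brain WT 4 the WT value was 3.49 (limma adjusted p = 0.0573). Cox6a2 (chr7:128205435-128206387, minus strand, GRCm38) lies within the span of Itgad (chr7:128154376-128223816, plus strand), and without strand the reads of the 2 genes cannot be told apart where they overlap. The common form Cox6a1 had 697 and 636 TPM in brain WT and 1039, 1191 and 1007 TPM in liver WT. Cox7a1, the muscle form of Cox7a, was listed at 0 in all 5 brain libraries and at 15.9, 10.9 and 2.89 TPM in liver WT and 9.61, 9.65 and 6.51 TPM in liver VE. Cox6b2, the testis form of Cox6b, had 0.0857 and 0.0920 TPM in brain WT and 15.8, 15.1 and 9.83 TPM in liver WT (log2 fold change -3.72, SE 1.06, limma adjusted p = 0.0403). In VE it had 17.9, 0.156 and 1.503 TPM in brain and 7.31, 12.9 and 3.34 TPM in liver, and the organs overlapped.

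**Figure D2:**
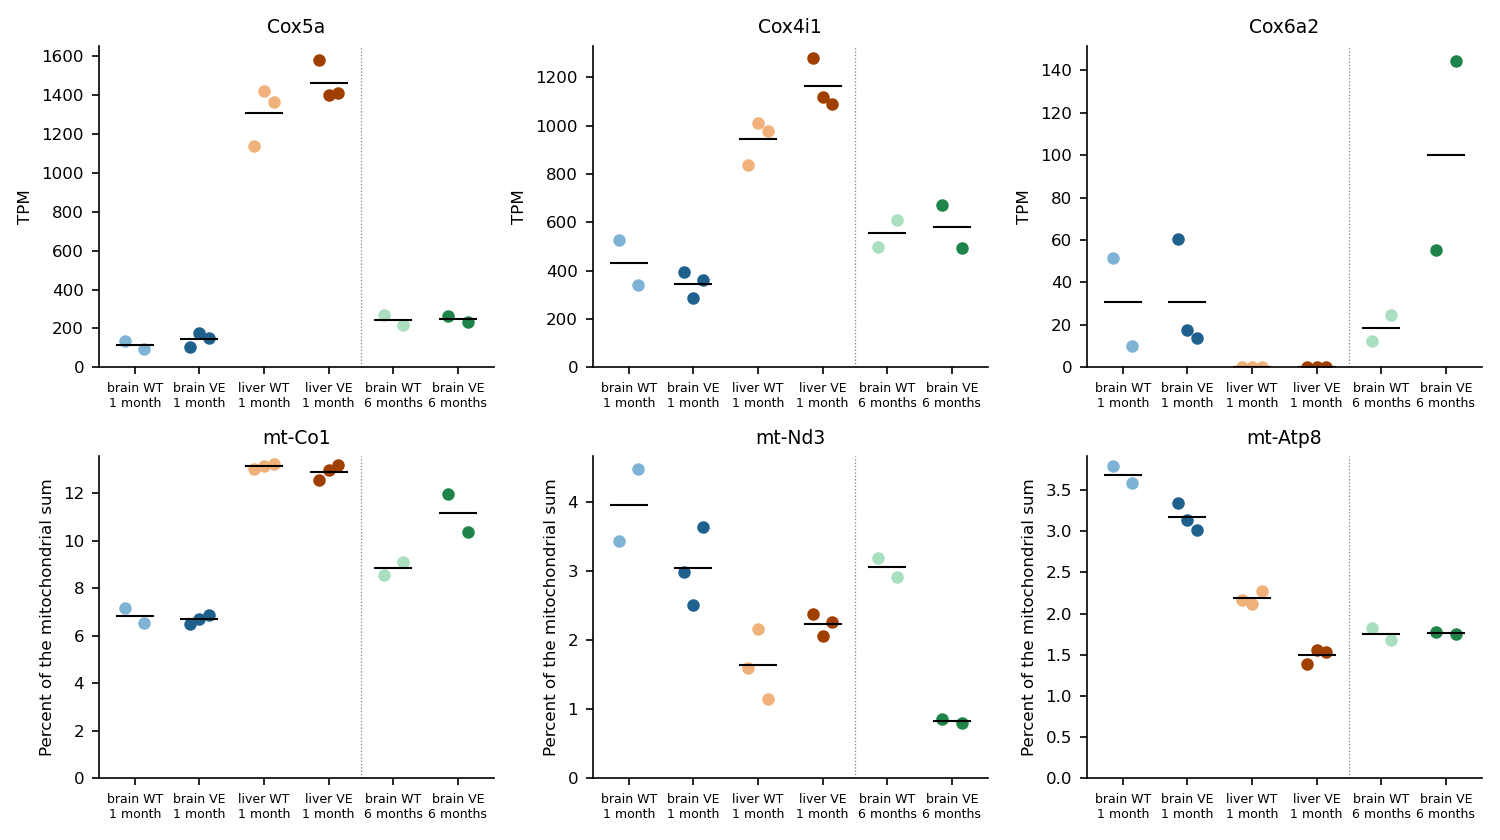
TPM by library of Cox5a, Cox4i1 and Cox6a2 (top) and share of the mitochondrial sum in percent of mt-Co1, mt-Nd3 and mt-Atp8 (bottom), in the 6 groups. Each point is a library and each line a group mean. Cox5a is 91.9 to 179.0 TPM in brain and 1140 to 1581 TPM in liver at 1 month, and mt-Nd3 is 0.859 and 0.806% of the mitochondrial sum in VE at 6 months.

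In complex I, none of the 7 nuclear core subunits was called in either genotype, with medians of -0.33 in WT and -0.45 in VE. Of 29 accessory subunits 1 was lower in WT (Ndufb8, -0.89) and 9 in VE, among them Ndufc1 with 31.4, 65.3 and 61.6 TPM in brain against 151, 144 and 158 TPM in liver (-1.57, SE 0.32, limma adjusted p = 0.00652) and Ndufa5 (-1.40). Ndufc2, an accessory subunit of the membrane arm, was higher in brain VE, at 550.5, 664 and 580 TPM against 403, 347 and 317 TPM (0.75, SE 0.20, limma adjusted p = 0.0268). In complex II, which links the chain to the tricarboxylic acid cycle, the membrane anchors differed and the catalytic subunits did not pass the test. Sdhc had 31.2 and 35.8 TPM in brain WT and 116, 129 and 145 TPM in liver WT (-1.92, limma adjusted p = 0.00474) and was not called in VE, and Sdhd was lower in both genotypes (-1.33 and -1.01). Sdha had 96.2 and 184 TPM in brain WT and 65.3, 49.6 and 61.6 TPM in liver WT, and Sdhb had 311 and 329 TPM and 315, 301 and 342 TPM. In complex III none of 8 was called in WT and 4 were lower in VE: Uqcr11 (-1.14), Uqcrh (-0.85), Uqcrb (-0.81) and Uqcrq (-0.81).

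In complex V the calls lay outside the alpha and beta subunits. Atp5d, the delta subunit of the catalytic head, had 20.9 and 70.5 TPM in brain WT and 107, 148 and 167 TPM in liver WT (-1.82, limma adjusted p = 0.0319), and its log2 fold change in VE was -2.37 (limma adjusted p = 0.00262). Atp5g3 for the membrane ring was lower in both (-1.75 and -1.65), as was Atp5o, the stalk subunit that confers oligomycin sensitivity (-1.96 and -1.30). The alpha and beta subunits, Atp5a1 and Atp5b, were not called. Atp5a1 had 86.3 and 28.7 TPM in brain WT against 108, 135 and 124 TPM in liver WT. Atp5b had 277 and 254 TPM in brain WT against 268, 348 and 385 TPM in liver WT. Atp5s, a coupling factor taken in by the symbol rule, was higher in brain WT at 70.0 and 35.7 TPM against 11.7, 5.41 and 2.82 TPM (2.91, SE 0.84, limma adjusted p = 0.0431). The libraries of the 2 organs did not overlap for any called member. Calls with so few libraries favour separated groups, so this adds no support to them. The counts moved with single libraries: nuclear calls in WT fell from 12 to 5 without brain WT 4 and to 7 without brain WT 5, mitochondrial calls in WT from 5 to 1 without brain WT 5, and in VE nuclear calls from 29 to 15 without brain VE 3 or brain VE 5 and to 18 without brain VE 4, and mitochondrial calls from 6 to 3 without brain VE 5. Without liver VE 3, the library high in erythroid markers, there were 21 nuclear and 7 mitochondrial calls in VE.

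**Figure D3:**
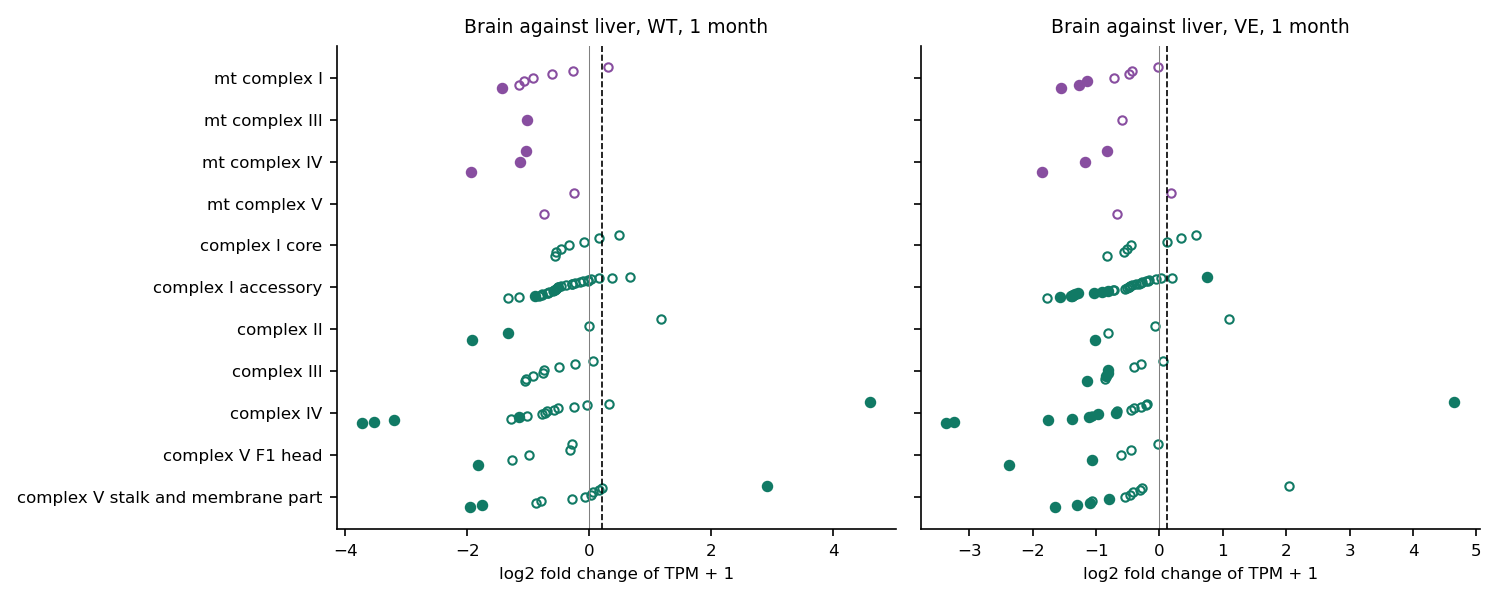
Log2 fold change of TPM + 1 in brain against liver at 1 month for each tested member, by complex and part, in WT (left) and VE (right). Filled points passed the threshold of 0.05 on the limma adjusted p; purple marks mitochondrial and green nuclear genes, and the dashed line is the median of all genes tested (0.21 and 0.13). Most points lie left of that line, and Cox5a lies at -3.53 and -3.36.

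At 1 month no respiratory chain gene differed between VE and WT beyond the test's threshold. In brain, 0 of 79 nuclear and 0 of 13 mitochondrial genes were called by limma, where 0.152% of all genes were, and 2 nuclear and 0 mitochondrial genes had an unadjusted p under 0.05, which 6.42% of all genes had. Medians were -0.03 for nuclear and 0.16 for mitochondrial genes, beside -0.02 for all genes. The lowest adjusted p was that of Ndufb10, an accessory subunit of complex I, with 245.9 and 301.0 TPM in WT and 121.2, 102.1 and 133.6 TPM in VE. These libraries did not overlap, and the log2 fold change of -1.20 (SE 0.29) had a limma adjusted p of 0.238. In simulated data, 5 or 6 of 100 genes set to a log2 change of 2 were found in this comparison. A p that misses the threshold does not show that the groups were alike, and the brain libraries were wide apart for many members. Uqcrfs1, the Rieske iron-sulfur protein of complex III, had 26.7 and 213 TPM in the 2 WT libraries.

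In liver, 0 nuclear and 0 mitochondrial genes were called by limma, where 0.225% of all genes were, 0.086% higher and 0.139% lower. At an unadjusted p under 0.05 there were 9 nuclear and 5 mitochondrial genes, and 9.98% of all genes lay under it. Medians were 0.12 for nuclear and 0.10 for mitochondrial genes beside 0.01 for all genes. A positive log2 fold change was found for 57 of 79 nuclear genes, beside 7691 of all 15123 genes tested. Medians of other lists were 0.31 for cytosolic and -0.09 for mitochondrial ribosomal proteins. Ndufa1, a small membrane-arm subunit of complex I, had the lowest adjusted p of the members (log2 fold change 0.42, SE 0.12, limma adjusted p = 0.272). Of the mitochondrial genes, mt-Nd2 had 3769, 3551 and 2877 TPM in WT and 4890, 4179 and 7499 TPM in VE (0.66, SE 0.20, limma adjusted p = 0.296). mt-Co2 had 22729, 21711 and 18296 TPM in WT and 25683, 25010 and 29804 TPM in VE. In both genes every VE library lay above every WT library, and neither passed the test. The test of a genotype difference between brain and liver called none of the 92 members, where 0.0264% of all genes were called, with a lowest limma adjusted p of 0.284 for Ndufb10. At an unadjusted p under 0.05 there were 3 nuclear and 0 mitochondrial genes, beside 6.47% of all genes. Without liver VE 3 the liver counts were again 0 and 0. The genotype comparisons of the 2 organs use different libraries, and this test uses all of them.

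At 6 months VE and WT brain macrophages differed in many respiratory chain messages, in opposite directions for different subunits. Of 78 nuclear genes, 16 rose and 6 fell in VE, and of 13 mitochondrial genes 1 fell and none rose. Across all 12174 genes tested 18.3% were called, 3.61% higher and 14.7% lower. Median log2 fold changes were 0.48 for nuclear and -0.02 for mitochondrial genes, beside -0.73 for all genes tested. Relative to the median of all genes, the nuclear median was thus 1.21 higher and the mitochondrial one 0.71 higher. Microglia markers moved in the same libraries: 10 of 12 fell, with a median of -2.77, all 12 stayed at or above 1 TPM, and Csf1r, the receptor whose promoter drives Cre, had 63.2 and 80.7 TPM in VE against 420 and 449 TPM in WT (log2 fold change -2.59, SE 0.25, limma adjusted p = 0.00899). Genes listed above 0 numbered 30001 to 33377 per column in VE and 21320 to 23630 in WT. Monocyte and neutrophil markers summed to 184 and 4368 TPM in the WT libraries and 7.78 and 33.5 TPM in the VE libraries. The part of these differences in the results below was not tested.

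Among the calls, complex III held the largest fall and, apart from the less abundant Cox6a2, the largest rise. Uqcr11 (ENSMUSG00000020163, chr10:80402997-80406830, minus strand, GRCm38), its smallest subunit, had 516 and 497 TPM in WT and 1509 and 1402 TPM in VE. The VE libraries were more than double the WT libraries, with a log2 fold change of 1.52 (SE 0.19, limma adjusted p = 0.0132). Uqcrc1 (ENSMUSG00000025651, chr9:108936633-108949623, plus strand), a large matrix-side core protein of the same complex, had 44.5 and 87.8 TPM in WT and 9.73 and 10.7 TPM in VE. Both VE libraries lay far under the lower WT library, with a log2 fold change of -2.51 (SE 0.45, limma adjusted p = 0.0245). Uqcrq (1.02) and Uqcrh (0.78) rose as well, so of 8 nuclear subunits 3 rose and 1 fell. The promoters of the 2 genes at the extremes are printed to show the start regions of subunits of 1 complex that moved apart. They lie at chr10:80406822-80407071 (minus strand) for Uqcr11 and chr9:108936398-108936647 (plus strand) for Uqcrc1, in GRCm38.p6 from RefSeq, and capitals mark the match to the ETS-type string.
Uqcr11 promoter: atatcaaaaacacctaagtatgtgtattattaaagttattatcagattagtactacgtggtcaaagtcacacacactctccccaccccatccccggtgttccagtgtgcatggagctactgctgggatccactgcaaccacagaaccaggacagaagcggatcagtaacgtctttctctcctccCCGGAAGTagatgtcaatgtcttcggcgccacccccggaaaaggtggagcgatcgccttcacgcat
Uqcrc1 promoter: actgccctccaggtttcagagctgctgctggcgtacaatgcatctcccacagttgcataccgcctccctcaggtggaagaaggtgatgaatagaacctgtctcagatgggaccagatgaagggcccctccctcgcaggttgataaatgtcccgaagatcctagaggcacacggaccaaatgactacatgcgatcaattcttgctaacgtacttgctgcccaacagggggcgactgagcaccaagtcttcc
The Uqcr11 window held 1 match to the 4 strings and the Uqcrc1 window none. Over the members called at 6 months with a promoter entry, the NRF1-type string was found in 1 of 12 that rose and 0 of 4 that fell, the ETS-type string in 2 of 12 and 0 of 4, the YY1-type string in 1 of 12 and 0 of 4, and the SP-type string in 5 of 12 and 3 of 4.

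Complex I also had calls in both directions. Of its 29 tested accessory subunits 5 rose and 1 fell, and the median was 0.64. Ndufa7 had 385 and 454 TPM in WT and 1047 and 1051 TPM in VE (1.32, SE 0.20, limma adjusted p = 0.0196), and Ndufb2 rose by 1.13 on the log2 scale. Ndufa1, the most abundant complex I subunit in these libraries, rose by 0.95 and Ndufb8 by 0.85. Ndufa10, an accessory subunit of the membrane arm related to nucleoside kinases, fell from 42.7 and 40.3 TPM to 9.59 and 6.68 TPM (-2.24, SE 0.41, limma adjusted p = 0.0255). Of the 7 nuclear core subunits, which carry the flavin and the iron-sulfur clusters, 6 had a negative log2 fold change, 1 of them passing the test, and the median was -0.96. Over all 12174 genes tested, 8482 had a negative log2 fold change, 14.7% were called lower and the median was -0.73. Ndufv1, which binds NADH, had 42.9 and 18.5 TPM in WT and 7.62 and 2.23 TPM in VE (-2.47, limma adjusted p = 0.0531), and Ndufs1 had 32.2 and 18.7 TPM and 5.11 and 7.84 TPM (-1.80, limma adjusted p = 0.0552). Neither of these 2 genes passed the test. Their libraries did not overlap, but groups of 2 libraries separate easily. At 6 months 41.2% of all genes had an unadjusted limma p under 0.05. Ndufv3, a peripheral-arm accessory subunit, rose by 1.09.

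In complex V the catalytic head and the membrane part differed. Atp5b, the catalytic beta subunit, fell from 260 and 202 TPM to 75.7 and 70.9 TPM (-1.63, SE 0.27, limma adjusted p = 0.0205), and its partner Atp5a1 fell from 60.2 and 49.7 TPM to 18.1 and 13.7 TPM (-1.73, SE 0.37, limma adjusted p = 0.033). None of the 5 head subunits was called higher, 1 had a positive log2 fold change and 4 a negative one, and their median was -1.30. Of 11 stalk and membrane subunits 4 rose and none fell, with a median of 0.59: Atp5mpl (1.08), Atp5g1 (1.03), Atp5l (1.01) and Atp5j (0.99). Other abundant genes had a median of -1.62 over 1000 coding nucleotides and 0.49 up to 300. The part of coding length in this contrast was not tested. Atp5g1 had 309 and 293 TPM in WT and 625 and 603 TPM in VE, while Atp5g3, for the same ring protein, had 281 and 301 TPM in WT and 235 and 114 TPM in VE. The share of Atp5g3 in their sum was 49.1 ± 2.1% in WT and 21.6 ± 8.1% in VE (SD, n = 2 each), a within-library measure that was not tested.

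Complex IV had mostly positive values: 13 of its 14 tested nuclear subunits had a positive log2 fold change, and 4 rose and 1 fell. Cox6a2 had 12.5 and 24.8 TPM in WT and 55.3 and 144.5 TPM in VE (2.28, SE 0.57, limma adjusted p = 0.043). The more abundant Cox6a1 rose by 0.89, Cox6c by 0.75 and Cox6b1 by 0.73. Cox6b1 was the most abundant nuclear subunit in both groups, at 1415 and 1185 TPM in WT and 2124 and 2175 TPM in VE. Cox7a2l, which takes part in supercomplex assembly, fell from 203 and 223 TPM to 85.9 and 73.4 TPM (-1.41, SE 0.26, limma adjusted p = 0.0247). Cox7a2 had 342 and 287 TPM in WT and 456 and 552 TPM in VE, Cox8a 1159 and 932 TPM and 1598 and 1784 TPM, and neither was called. Complex II had no call among 4: Sdha had 24.3 and 39.3 TPM in WT and 16.5 and 22.7 TPM in VE, Sdhb 262 and 237 TPM and 214 and 158 TPM, and Sdhd 294 and 328 TPM and 391 and 456 TPM.

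Of the mitochondrial genes, mt-Nd3 (ENSMUSG00000064360, chrM:9459-9806, plus strand), a small core subunit of complex I, was the one that changed. It had 2569 and 2431 TPM in WT and 576 and 849 TPM in VE, with a log2 fold change of -1.84 (SE 0.24, limma adjusted p = 0.0146). Its share of the mitochondrial sum was 3.19 and 2.91% in WT and 0.859 and 0.806% in VE, so the difference also stood within a library. The shares of mt-Co1 were 8.55 and 9.12% in WT and 11.99 and 10.38% in VE, and those of mt-Co2 15.1 and 14.0% in WT and 11.8 and 10.2% in VE. Neither gene passed the test on its TPM. The other 12 mitochondrial genes had no call, with 6 positive and 6 negative log2 fold changes, and the wide gap between the VE libraries is seen in mt-Cytb, at 8434 and 15564 TPM against 9370 and 10263 TPM in WT.

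**Figure D4:**
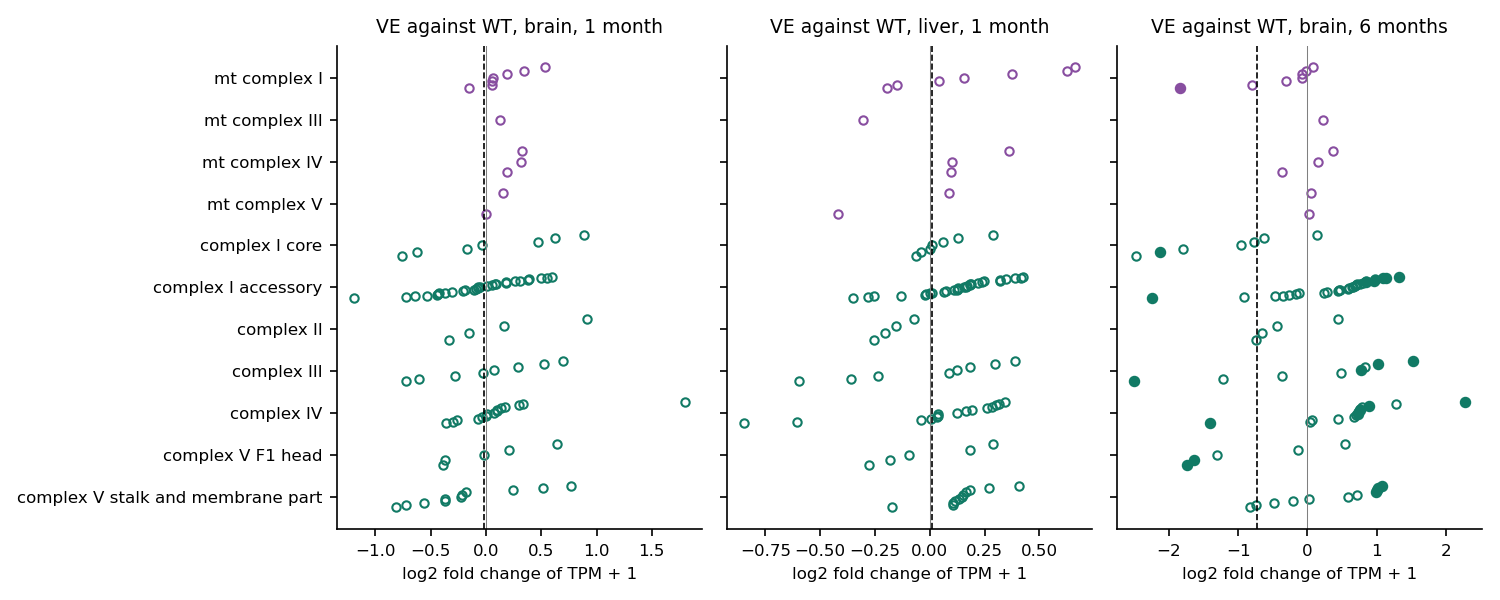
Log2 fold change of TPM + 1 in VE against WT for each tested member, by complex and part, in brain at 1 month, liver at 1 month and brain at 6 months (axes differ in range). Filled points passed the threshold of 0.05 on the limma adjusted p; purple marks mitochondrial and green nuclear genes, and the dashed line is the median of all genes tested (-0.02, 0.01 and -0.73). Filled points are present only at 6 months, where 16 nuclear genes lie to the right and 6 nuclear and 1 mitochondrial gene to the left.

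The subunits that rose and fell at 6 months differed in size. Coding length was taken from the principal transcript of each gene. All 22 tested nuclear subunits of up to 300 coding nucleotides had a positive log2 fold change, with a median of 0.75 and 8 calls, all higher. Of 26 between 300 and 500 nucleotides, 21 were positive, with 6 higher and 1 lower call, and of 14 between 500 and 750 nucleotides 6 were. Of the 11 over 1000 nucleotides 10 were negative, with a median of -1.73 and 5 lower calls, and the exception was Ndufv3, whose principal transcript has 1404 coding nucleotides. Over the 78 nuclear subunits Spearman's rho of log2 fold change and coding length was -0.71. The same order was present outside the respiratory chain: rho was -0.68 over 81 cytosolic ribosomal proteins, -0.64 over 77 mitochondrial ribosomal proteins and -0.55 over 881 other protein-coding genes with a mean of at least 100 TPM, but -0.16 over all 9639 protein-coding genes tested. Among those 881 genes the median log2 fold change was 0.49 up to 300 nucleotides, 0.17 to 500, -0.44 to 750, -0.78 to 1000 and -1.62 beyond. Over the 13 mitochondrial genes rho was 0.34. In liver at 1 month, where no member was called, rho was -0.57 over 79 nuclear subunits and -0.32 over 1146 other abundant genes, and in the brain comparison of that age it was -0.25 over the nuclear subunits. These are descriptions across genes, which are not independent replicates and share the libraries of a comparison. TPM divides by length, and whether an effect of length on the measurement remains was not tested. The number of genes listed above 0 differed between the same 6-month groups, and its part in this pattern was not tested.

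**Figure D5:**
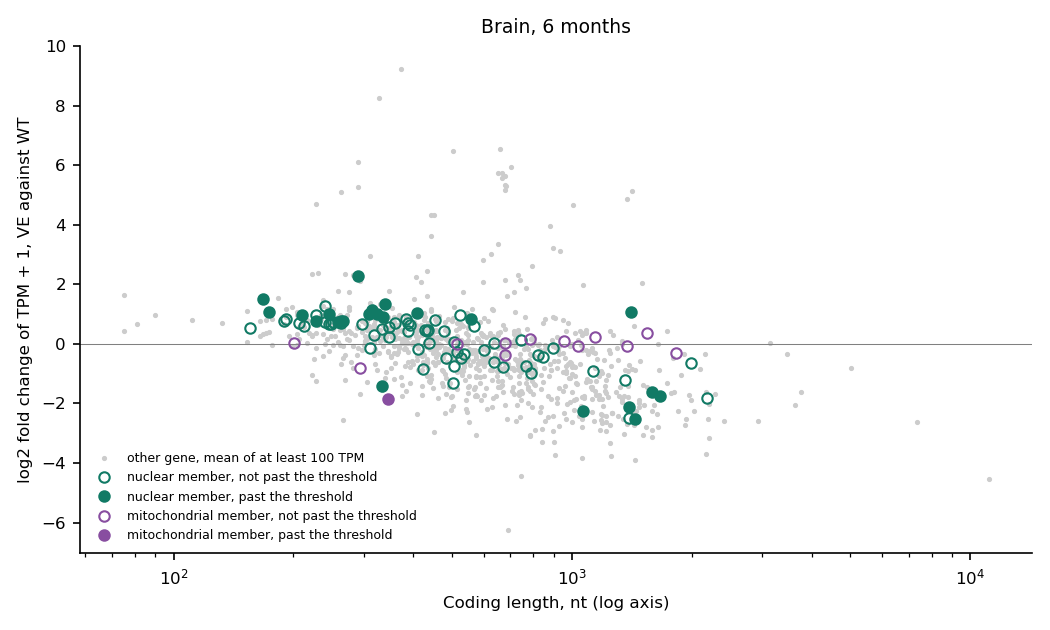
Coding length of the principal transcript (nucleotides, log axis) and log2 fold change of TPM + 1 in VE against WT brain at 6 months. Green points are the 78 tested nuclear subunits, purple points the 13 mitochondrial genes and grey points the 881 other protein-coding genes with a mean of at least 100 TPM. Short genes lie mostly above 0 and long genes mostly below in both the green and the grey points, with rho of -0.71 and -0.55.

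The 6-month calls depended on library and column choice. Nuclear calls numbered 1 without VE 2 and 8 without VE 1, 5 with median-ratio scaling, and 0 with the first column of each sample or with no filter on low values, against 22. Uqcr11 and mt-Nd3 kept their log2 fold changes with the first column, at 1.52 and -1.81, where the limma adjusted p was 0.0502 and 0.0516.

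Other genes of mitochondrial energy metabolism gave a frame for these values at 6 months. The background for these counts is 3.61% higher and 14.7% lower over all genes. Other abundant genes over 1000 coding nucleotides had a median of -1.62, with 103 of 163 lower and 2 higher. Those of up to 300 had a median of 0.49, with 32 of 107 higher and 3 lower. The part of coding length in the counts of these lists was not tested. Of 18 tested genes of the tricarboxylic acid cycle 8 fell and none rose, with a median of -1.71, led by Idh2 (-3.42), Idh3g (-2.90) and Fh1 (-2.58), which encode mitochondrial isocitrate dehydrogenase proteins and fumarase. Of 33 genes for mitochondrial DNA maintenance and expression 7 fell and none rose, with a median of -1.16, among them Polrmt (-3.12), the mitochondrial RNA polymerase. Of 21 genes of import and mitochondrial mass 6 fell, including Phb2 (-2.80), Vdac1 (-2.64) and Opa1 (-2.61), of 43 assembly factors 4 fell (median -0.38) and of 17 glycolytic genes 3 fell (median -0.80), with no rise in these 3 lists. Of 22 genes for carriers, cytochrome c and coenzyme Q 2 fell and none rose, of 7 regulators none was called, and of 5 genes for uncoupling or inhibition 1 fell, Ucp2 (-1.85). Ribosomal proteins had calls in both directions: of 77 mitochondrial ones 2 rose and 10 fell, with a median of -0.56, and of 81 cytosolic ones 3 rose and 8 fell, with a median of -0.18. Besides the respiratory chain subunits, these were the lists with calls in both directions, beside a median of -0.73 for all genes tested.

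In the organ comparison, calls are to be read beside 7.56% higher and 6.02% lower for all genes in WT and 9.13% and 7.8% in VE. Of 35 genes for mitochondrial DNA maintenance and expression 4 were higher and 1 lower in brain WT (median 0.97) and 9 higher and none lower in brain VE (median 0.57). Of 46 assembly factors 3 were higher and 4 lower in WT and 6 and 2 in VE. Cytosolic ribosomal proteins had lower medians in brain, -0.65 in WT with 1 higher and 21 lower calls and -0.70 in VE with 1 higher and 28 lower of 81, and mitochondrial ribosomal proteins -0.17 and -0.38, with 7 and 6 lower of 77 and none higher. In the genotype comparisons at 1 month none of these lists had a call.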

How the data were processed

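RNA of the 15 sorted samples was amplified with the SMART-seq V4 kit, per the labels' protocols. Per the submitters' processing notes, STAR, mm10 and GRCh38 are named, without roles. Neither the quantifier nor its annotation is given in these sources. Deposited values are TPM per Ensembl gene, in 1 table per age, with 28 sample columns that each sum to 1000000, so depth is unknown and no counting intervals were computed. Repeat columns were averaged (liver WT 5 and 6-month WT 1 have 1 column). GENCODE M21 (GRCm38) named 37693 of 39017 genes (96.6%). Promoters came from RefSeq (GRCm38.p6), where 66 nuclear members matched by symbol.

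A gene entered the tests with 1 TPM or more in 2 or more libraries of an age. The model was limma-trend (limma 3.58.1, R 4.3.3) on log2(TPM + 1), 2-sided, with Benjamini-Hochberg adjustment over all genes tested and a threshold of 0.05. The 4 groups of 1 month were fitted together with 1 variance weight per organ, 0.446 for brain and 1.96 for liver, which assumes the same ratio of spread for every gene. The 6-month groups were fitted alone. The scripts, in R and in Python 3.11.15 with scipy 1.17.1, were checked on simulated data. Where the simulated spread differed by gene and organ, the 1-month model called more unchanged genes than under its own assumption, by a number of the order of the genotype calls over all genes at that age. Of 100 genes set to a log2 change of 2, it found 5 under its own assumption and 6 otherwise for brain VE against WT. The same counts were 63 and 60 in liver and 9 and 24 for brain against liver VE. At 6 months they were 38 and 0, and 100 and 17 for a log2 change of 4.

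Members, lists and tests were chosen with earlier results of these data known. The named genes are Braf and Csf1r, the mitochondrial genes, the paralog sets, the catalytic subunits, at most the 10 largest calls per direction and comparison, the most abundant subunits, and at most 3 genes of another list per direction. Ndufb10, mt-Nd2 and mt-Co2 in the genotype comparisons of 1 month, and the remaining called members named beyond these, were singled out after their values were seen. Alternatives were the filter, pseudocount, scaling, repeat columns, equal spread, a fit of only the groups compared, a replicate block and leaving out each library. The values of 1 member are not reported here by name.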

Additional observations from a re-analysis of the deposited data

Results flagged for a closer look

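In 6 nuclear subunits the VE and WT brain libraries did not overlap at either age and the log2 fold changes had opposite signs at 1 and 6 months. They were -0.31 and 0.45 for Ndufa13, -0.21 and 0.85 for Ndufb8, 0.91 and -0.75 for Sdhc, -0.22 and 0.99 for Atp5j, -0.56 and 0.71 for Atp5j2 and -0.82 and 0.59 for Atp5k. They are 6 of the 91 members tested at both ages (6.59%), and 6.55% of all 11482 genes tested at both ages had this pattern. Between liver at 1 month and brain at 6 months the same held for mt-Nd3 (0.63 and -1.84), mt-Co2 (0.36 and -0.37), Ndufb7 (0.35 and -0.17) and Ndufs4 (-0.26 and 0.97), 4 of 91 members (4.4%), beside 4.48% of all genes. Both shares lay near those of all genes. Cox4i2 had -0.61 in liver and was not tested at 6 months, where it had 0.624 and 0.0922 TPM in VE and was listed at 0 in WT. The difference between the ages was not tested, since the tables were made separately, and none of these genes was called in a genotype comparison at 1 month.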

How the results depend on the processing

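Leaving out each library in turn gave 5 to 16 nuclear calls (12 with all) and 1 to 5 mitochondrial calls (5) for brain against liver WT, 15 to 23 (29) and 3 to 7 (6) for brain against liver VE, and 1 to 16 (22) and 1 to 2 (1) for VE against WT at 6 months. For brain against liver WT there were 30 nuclear and 8 mitochondrial calls with median-ratio scaling, 19 nuclear calls with mitochondrial genes removed, 22 and 8 with equal spread over both organs, 7 and 2 with the last repeat column and 9 mitochondrial calls with the first. For brain against liver VE there were 18 nuclear calls with the first repeat column and 15 with the last. For VE against WT in brain at 1 month there was 1 nuclear call with no filter and 1 with equal spread. At 6 months the nuclear calls were 35 with a filter of 5 TPM, 5 with median-ratio scaling, and 0 with no filter or the first repeat column, and the mitochondrial calls were 0 with each of these 2. The cause was not tested, except that equal spread, the filter and leaving out a library change the error estimate, the genes adjusted over or the number of samples by construction. In brain at 1 month the first repeat column turned the sign of Atp5j to 0.10, Ndufa13 to 0.24 and Ndufb8 to 0.28, none of them called.

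With a replicate block there were 11 nuclear and 4 mitochondrial calls for brain against liver WT, 25 and 6 for VE, 21 and 1 at 6 months, and 0 in the other comparisons. Correlations of deviations between same-numbered samples were -0.0203 to 0.0387 at 1 month and 0.00794 at 6 months. Differently numbered samples gave -0.0583 to 0.0431 at 1 month. The deviations are from means of so few libraries that these values cannot decide whether same-numbered samples were paired. At 6 months the deviations within a group mirror each other, so same-numbered and differently numbered values differ in sign only. The block changed the all-gene calls from 23 to 0 in brain VE against WT, from 34 to 13 in liver and from 4 to 0 in the test between organs.

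The balance of mitochondrial to nuclear RNA as a difference of mean log2 values was 4.59 in brain WT, 4.77 in brain VE, 4.98 in liver WT and 5.02 in liver VE at 1 month and 4.63 in WT and 4.30 in VE at 6 months. The log2 ratio of the sums, the quantity of the report, was 1.58, 1.79, 2.05 and 2.03 at 1 month and 1.74 and 1.17 at 6 months in the same order. Without the most abundant member of each side this log2 ratio was 1.43 in brain VE, 1.72 in liver WT, 1.70 in liver VE, 1.32 in 6-month WT and 0.71 in 6-month VE. In brain VE the log2 ratio was 1.66 with the first and 1.91 with the last repeat column. Leaving out a library moved the log2 ratio between 1.19 and 1.98 in brain WT and between 0.87 and 1.47 in 6-month VE.

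All-gene calls moved most in the genotype comparisons. In brain at 1 month the 23 calls became 227 with equal spread, 151 with no filter, 7 with a pseudocount of 0.1 or the last repeat column, 0 with a filter of 5 TPM or a fit of only the groups compared, and 2 to 12 without VE 4, VE 5, WT 4 or WT 5. In liver the 34 calls became 18 and 9 with the first and last repeat column, 7 with equal spread, 11 with a fit of only the groups compared, 101 without VE 4 and 69 without WT 5. At 6 months the 2224 calls became 23 with no filter, 185 with the first repeat column, 594 without VE 1 and 231 without VE 2. Brain against liver had 1134 and 1215 calls in WT with the first and last repeat column and 3097 with equal spread (2053), and 1685 and 1337 in VE (2561). The test between organs ranged from 0 to 50 calls (4). Read depth is unknown, so the limit it sets cannot be given.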
